A study of Mus musculus with 4 samples.

Results

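7SK, Y, vault and 5S RNAs are small noncoding RNAs made by RNA polymerase III, and their behaviour was followed in the livers of wild-type and Fto knockout mice. Members were all features that the authors named exactly 7SK, Y_RNA, Vault or 5S_rRNA. These were 48 of 7569 features in a methyladenosine immunoprecipitate (17 named 7SK, 3 Y_RNA, 2 Vault and 26 5S_rRNA). In the matching input RNA they were 45 of 12883 genes (40 7SK, 2 Y_RNA, 2 Vault and 1 5S_rRNA). Both genotypes were on a C57/Bl6 background, the tissue was a liver biopsy, and the labels give no age, sex or knockout allele. There were 4 labelled samples, an immunoprecipitate and an input for each genotype, each stated to stand for 3 replicates. In miCLIP, an antibody against N6-methyladenosine, which also binds N6,2'-O-dimethyladenosine (m6Am) next to the cap, is crosslinked to RNA before the bound fragments are cloned. FTO removes methyl groups from such adenosines.

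RNA polymerase III products keep a triphosphate or carry a simple methyl cap at their 5' end and do not receive the m7G cap of RNA polymerase II transcripts. 7SK, capped by the methyltransferase MEPCE and held by LARP7, binds HEXIM proteins and keeps the elongation kinase P-TEFb inactive. Y RNAs bind the Ro60 and La proteins and take part in RNA quality control. Vault RNAs sit in the vault, a large barrel-shaped ribonucleoprotein particle, and 5S rRNA is a structural RNA of the large ribosomal subunit.

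All values come from 2 comparison tables that the authors made, 1 for the immunoprecipitate by transcript and 1 for the input by gene. Values of single libraries were not analysed here. Each feature has a mean of normalized counts over all libraries of its table, called the mean below, and a log2 fold change with its standard error (SE). Calls of change are those with an adjusted p under 0.05, and 95% intervals were computed here as 1.96 SE either side of the fold change. In the immunoprecipitate the authors' p does not follow from the fold change and its SE, so they may not test the same term. There, called lower or higher gives only the side of 0 on which the fold change of a called feature lay. Neither table states its direction. Input fold changes were taken as knockout over wild type because Fto stood at −1.49 (SE 0.27, adjusted p = 3.52e-04) per the authors' deposited table, and the immunoprecipitate was read the same way without a check of its own, since no Fto feature was among those analysed there. If that reading is wrong, all immunoprecipitate signs below are reversed. The 4 hepatocyte markers in the input had means from 7423 to 84262, against 2.13 to 270 for 11 markers of other liver cells. In bulk tissue, fewer cells of a type and less RNA per cell cannot be told apart.

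7SK had the most signal of the 4 families in the immunoprecipitate, and the authors called 1 of its abundant copies, with a fold change below 0. A group of 6 copies with means above 500 held 98.7% of the family's summed mean. Of these 6, 5 had a log2 fold change between −3.00 and −1.83, with intervals wholly below 0, and 1 stood at 0.27. Without centring, such intervals were found for 18.6% of all features at any depth. After centring on the median feature, 1 of the 6 had one, the only such interval among the 99 features with a mean of at least 500. The authors called 1 of the 13 7SK copies that had an adjusted p, as lower, and 0 as higher. Across the table the authors called 3.79% of features lower and 0.895% higher, and 1 copy in 13 (7.69%) is too small a count to set against that background.

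The called 7SK copy (ENSMUST00000082463) had a mean of 2004 and stood at −2.91 (SE 0.64, adjusted p = 0.0341) per the authors' deposited table. It was the third most abundant copy and had the smallest SE of the family. Adjusted over every feature with a p in the table, its p was 0.0803, which ends the call. The most abundant copy (mean 2294) stood at −2.19 (SE 0.83, adjusted p = 0.228) per the authors' deposited table. The next, with a mean of 2282, stood at −2.00 (SE 0.86, adjusted p = 0.296) per the authors' deposited table. These 2 copies differed by less than either SE.

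Further down, the copy with a mean of 1619 stood at −1.83 (SE 0.88, adjusted p = 0.339) per the authors' deposited table. The copy with a mean of 895 was the lowest of the 6 at −3.00, with a wider SE of 1.43 (adjusted p = 0.472) per the authors' deposited table. The copy with a mean of 823 stood at 0.27 (SE 1.48, adjusted p = 1) per the authors' deposited table. All 6 intervals shared the stretch from −2.63 to −1.66, so the abundant copies did not separate from each other beyond their errors. Near-identical copies can share reads, and how the authors assigned such reads is unknown here, so the 6 values are not independent measurements.

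**Figure D1:**
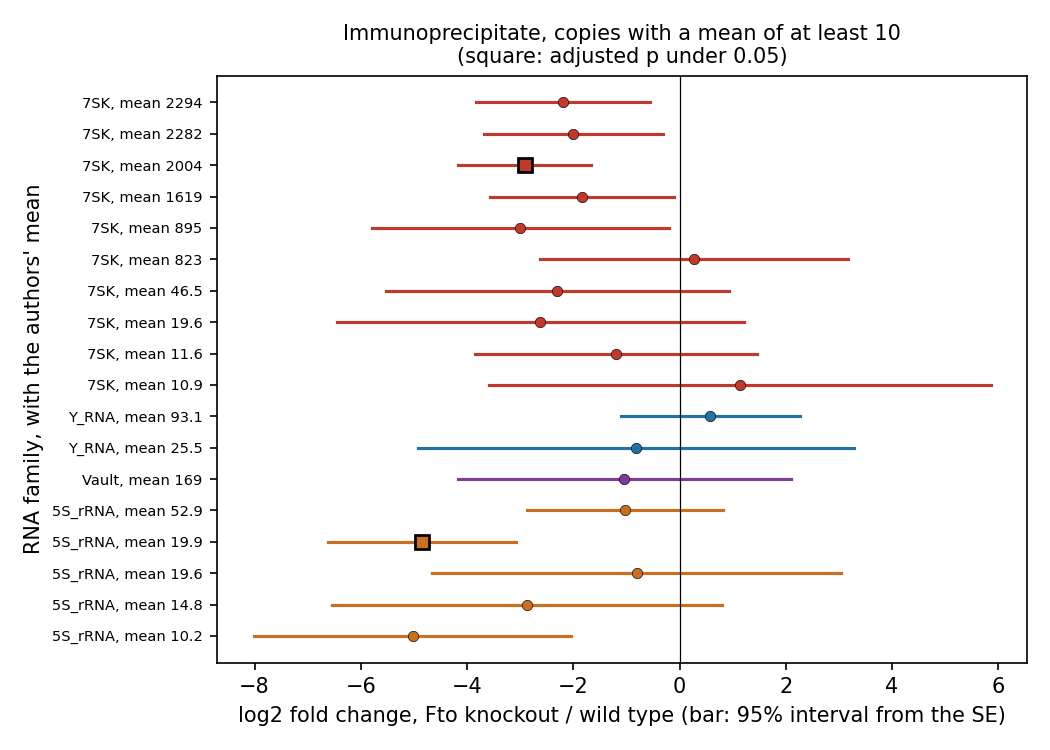
Log2 fold change (knockout over wild type) in the immunoprecipitate for the 18 members with a mean of at least 10, with the 95% interval from the SE as a bar and squares for the 2 features the authors called. The first 5 bars of 7SK lie below 0, the bars of Y_RNA and Vault cross 0, and 5S_rRNA holds both kinds.

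The 4 remaining 7SK copies with a mean of at least 10 had means from 10.9 to 46.5, and each of their intervals crossed 0. The copy with a mean of 46.5 stood at −2.30 (SE 1.65) and that with a mean of 19.6 at −2.62 (SE 1.95) per the authors' deposited table. A copy with a mean of 11.6 lay below 0, and the highest of the family at this level, with a mean of 10.9, at 1.14 (SE 2.41) per the authors' deposited table. Over the 10 copies with a mean of at least 10, the median was −2.09 and 8 lay below 0, from the authors' deposited table. All 1682 features at that level had a median of −0.82, with 65.2% below 0. Relative to that median feature, 7SK stood at −1.27, again with 8 of 10 below 0. That median lies on a fold change that 842 features repeat, so values centred on it are taken against that number. The copies just inside and just outside this minimum had means of 10.9 and 9.72.

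The other 7 7SK copies had means from 1.49 to 9.72 and SEs with a median of 2.56. Of these, 4 carried a fold change that many features of the table repeat to 3 decimals. For 3 of them this was −0.82, a number held by 842 features, and for 1 it was 0.14, held by 271 features, per the authors' deposited table. A fold that recurs at many means is not a measured size for a copy, so these 4 are counted but not read.

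Among abundant features of the immunoprecipitate, 7SK lay at the lower end. The minimum mean of 500 used for this description was chosen after the values were seen. It left 99 features, of which 6 were 7SK, 43 snRNA, 26 protein-coding, and 24 of other kinds, mostly mitochondrial tRNA (17). All 43 snRNA features lay above 0, while 25 of the 26 protein-coding and all 17 mitochondrial tRNA features lay below 0. Their medians were 3.36, −0.61 and −0.69, against −2.09 for the 6 7SK copies, from the authors' deposited table. Centred on the median feature (−0.82), they became 4.18, 0.21 and 0.13, against −1.27 for 7SK, so the direction of the protein-coding and tRNA features depends on the scaling.

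The 5 lower 7SK copies held ranks 2 to 6 from the lowest of these 99 features. Rank 1 was Saa2, an acute-phase apolipoprotein gene, at −3.02 with an SE of 2.02 and an interval that crossed 0, from the authors' deposited table. By the authors' adjusted p, 1 of the 99 (1.01%) was called lower, and it was the 7SK copy. Intervals wholly below 0 were found for 6 of the 99 features (6.06%). Of these 6, 5 were 7SK copies, and the other was a mitochondrial tRNA at −1.53 (SE 0.64) per the authors' deposited table. With fold changes centred on the median of features at a mean of 10 or more, 1 interval was wholly below 0, that of the called 7SK copy. Without centring, at minimum means of 100 and 1000, 7SK made up 5 of 18 and 4 of 5 of the features with intervals wholly below 0. Those 18 and 5 were among 217 and 64 features. After centring, 7SK made up 1 of 6 and 1 of 1.

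**Figure D2:**
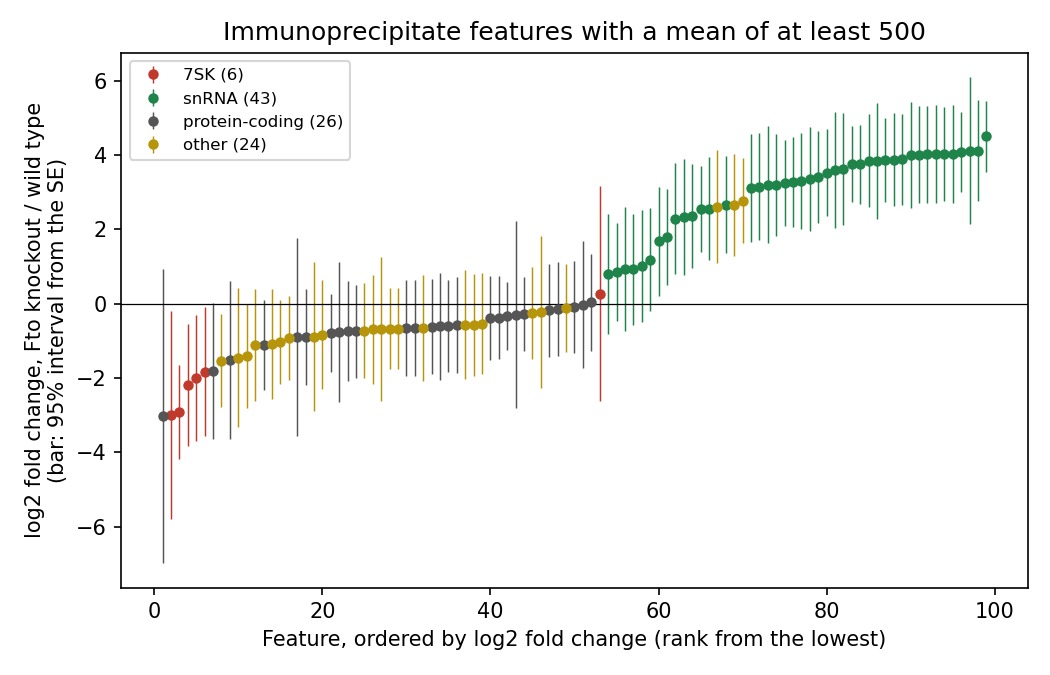
The 99 immunoprecipitate features with a mean of at least 500, ordered by log2 fold change (knockout over wild type), with 95% intervals as bars and colours for 7SK, snRNA, protein-coding and other features. Of the 6 7SK copies, 5 hold ranks 2 to 6 from the lowest, and the snRNA features fill the upper end.

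7SK was also set beside U6, another RNA polymerase III product with a methyl-capped triphosphate, and U1, an RNA polymerase II snRNA. In the immunoprecipitate the 24 U6 copies with a mean of at least 10 had a median of −0.80, with 14 below 0, and the 52 U1 copies a median of 3.90 with 0 below 0, from the authors' deposited table. U6atac, the U6 counterpart of the minor spliceosome, had 1 copy at that level, at −0.38 (SE 0.79) per the authors' deposited table. The authors called 0 of 36 U6 copies with an adjusted p, and 15 of 142 U6 copies with a p (10.6%, 14 of them lower) had an unadjusted p under 0.05, as did 10.4% of all features. Copies are not replicates and reached a mean of only 203 for U6, so the families were not tested against each other.

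In the input no 7SK gene was called. Rn7sk, the gene of 7SK itself (chr9:78175302-78175633 in GRCm38), had a mean of 3326 and stood at 0.11 (SE 0.21, adjusted p = 0.9998, interval −0.30 to 0.52) per the authors' deposited table. Which immunoprecipitate transcript belongs to Rn7sk is not stated in the table, so the 2 tables were not joined by copy. Fold changes in the input have the small sizes and near-equal SEs of shrunken estimates, and those in the immunoprecipitate do not. The sizes in the 2 tables are therefore not on one footing, and the difference between them was not tested.

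Rn7sk held 82.2% of the input signal of its family, and 39 other 7SK copies, with predicted-gene names, held 17.8% with means from 1.51 to 75.2. The authors' adjusted p called 0 of the 40 7SK genes, as did fold over SE, against 0.0155% of genes called lower and 0.0233% called higher in the whole input table. By the authors' unadjusted p, 1 copy was under 0.05, Gm26315 at −0.56 (SE 0.27, p = 0.0410, adjusted p = 0.9998) per the authors' deposited table. This was 2.50% of the 40, where 0.979% of all genes were lower at that unadjusted p. Its interval was also the only one of the 45 members wholly below 0, as 0.978% of all genes were. It was also the lowest 7SK copy of the input at a mean of at least 10, and Gm24936 was the highest at 0.51 (SE 0.30) per the authors' deposited table.

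Among all 40 7SK genes 30 lay above 0, with a median of 0.11, from the authors' deposited table. Of all genes, 53.5% lay above 0, and their median was 0.02. At a mean of at least 10, 13 of 19 7SK genes lay above 0, where 50.6% of all genes did. The 4 most abundant copies after Rn7sk were Gm23037 at 0.32, Gm24140 at −0.36, Gm24139 at 0.10 and Gm26315, so they lay on both sides of 0 per the authors' deposited table.

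**Figure D3:**
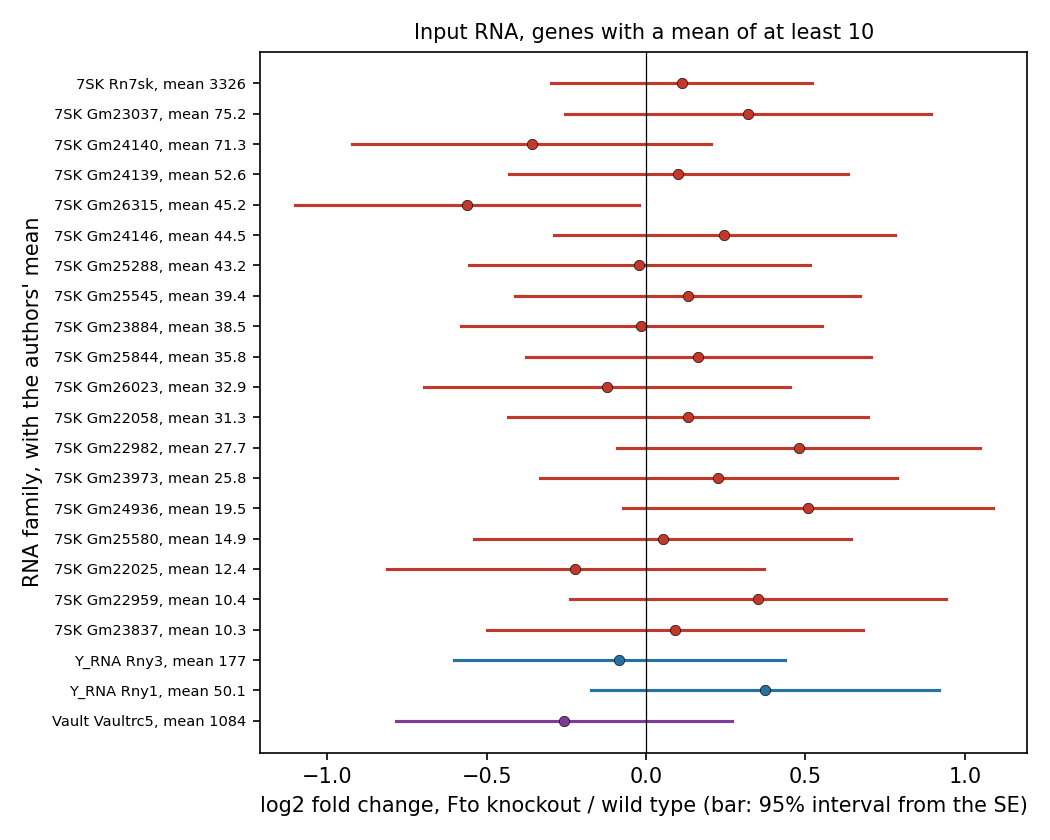
Log2 fold change (knockout over wild type) in the input for the 22 members with a mean of at least 10, with 95% intervals from the SE as bars. All bars cross 0 except that of the 7SK copy Gm26315, and Rn7sk, with the largest mean (3326), sits at 0.11.

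5S rRNA was spread over 26 weakly covered copies in the immunoprecipitate. Of the 8 with an adjusted p, 1 was called lower (12.5%, against 3.79% of all features). As for 7SK, 1 copy is too small a count to set against that background. That copy (ENSMUST00000082814) had a mean of 19.9 and stood at −4.85 (SE 0.91, adjusted p = 0.0278) per the authors' deposited table. The most abundant 5S copy, with a mean of 52.9, stood at −1.03 (SE 0.94, adjusted p = 0.981) per the authors' deposited table. Adjusted over every feature with a p, the p of the called copy was 0.0645, which ends the call. The intervals of these 2 copies, −6.62 to −3.07 and −2.87 to 0.82, did not overlap. The called copy is named for its value, so this difference was not tested.

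All 5 5S copies at a mean of 10 or more lay below 0, and 4 of the 5 did after centring. Of all 1682 features at that level, 65.2% lay below 0, and 841 did after centring. The lowest, with a mean of 10.2, stood at −5.03 (SE 1.52, adjusted p = 0.130), and the highest, with a mean of 19.6, at −0.80 (SE 1.96) per the authors' deposited table. A copy with a mean of 14.8 stood at −2.87 (SE 1.87), which was also the median of the 5, per the authors' deposited table. The 2 copies with means of 19.9 and 19.6 thus had nearly the same mean and fold changes of −4.85 and −0.80 per the authors' deposited table. Their intervals overlapped.

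The 21 5S copies under that minimum ranged from −9.19 to 9.41 with a median SE of 2.52, and 14 lay below 0, from the authors' deposited table. Over all depths, 70.5% of all features lay below 0. The copy just outside the minimum (mean 9.67) held the lowest of these values, at −9.19 (SE 2.28, p = 0.00485, adjusted p = 0.0752) per the authors' deposited table. The highest, at 9.41 (SE 3.84), had no p-value, and a U6 feature carried the same mean, fold change and SE, per the authors' deposited table. Neither −9.19 nor 9.41 is a measurable size at such depths. Of the 21, 4 carried repeated fold changes. Under an unadjusted p of 0.05, 4 of the 25 5S copies with a p were lower (16.0%, against 8.52% of all features), and 0 were higher (1.88% of all features).

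In the input the 1 5S gene, n-R5s2 (chrX:6106891-6107009 in GRCm38), had a mean of only 1.53 and stood at 0.16 (SE 0.19, adjusted p = 0.9998) per the authors' deposited table. At that depth its fold change carries little information about the level of 5S rRNA, which is made from many gene copies.

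No Y RNA feature passed the authors' test in either table, and 0 had an unadjusted p under 0.05. In the immunoprecipitate the most abundant of the 3 copies (mean 93.1) stood at 0.58 (SE 0.86, adjusted p = 0.917, interval −1.10 to 2.26) per the authors' deposited table. The other 2, with means of 25.5 and 3.96, both carried the repeated value of −0.82 per the authors' deposited table. The family therefore rests on 1 readable copy, whose interval leaves room for a rise or a fall of more than 1 on the log2 scale.

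The input resolved the Y RNA genes by name. Rny3 (chr6:47781624-47781724) had a mean of 177 and stood at −0.08 (SE 0.27, interval −0.60 to 0.44) per the authors' deposited table. Rny1 (chr6:47788070-47788180), which lies nearby on that chromosome, had a mean of 50.1 and stood at 0.37 (SE 0.28, interval −0.17 to 0.92) per the authors' deposited table. Both had an adjusted p of 0.9998. Per 100 bases of RNA the input level was 175 for Rny3, 45.1 for Rny1, 1002 for Rn7sk and 1.28 for n-R5s2, over both genotypes together. Small RNAs may be recovered unequally by the library preparation, which was not tested.

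Vault RNA was measured mainly through 1 copy in each table, and neither was called or had an unadjusted p under 0.05. In the immunoprecipitate the copy with a mean of 169 stood at −1.04 (SE 1.60, adjusted p = 0.862, interval −4.18 to 2.10) per the authors' deposited table. The other copy had a mean of 0.833 and the repeated value of −4.52, held by 27 features, per the authors' deposited table. In the input Vaultrc5 had a mean of 1084 and stood at −0.26 (SE 0.27, adjusted p = 0.9998, interval −0.79 to 0.27) per the authors' deposited table. Gm25403, the other vault gene, had a mean of 1.97 and stood at 0.12 (SE 0.21) per the authors' deposited table. Vaultrc5 thus had 99.8% of the family's input signal.

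**Figure D4:**
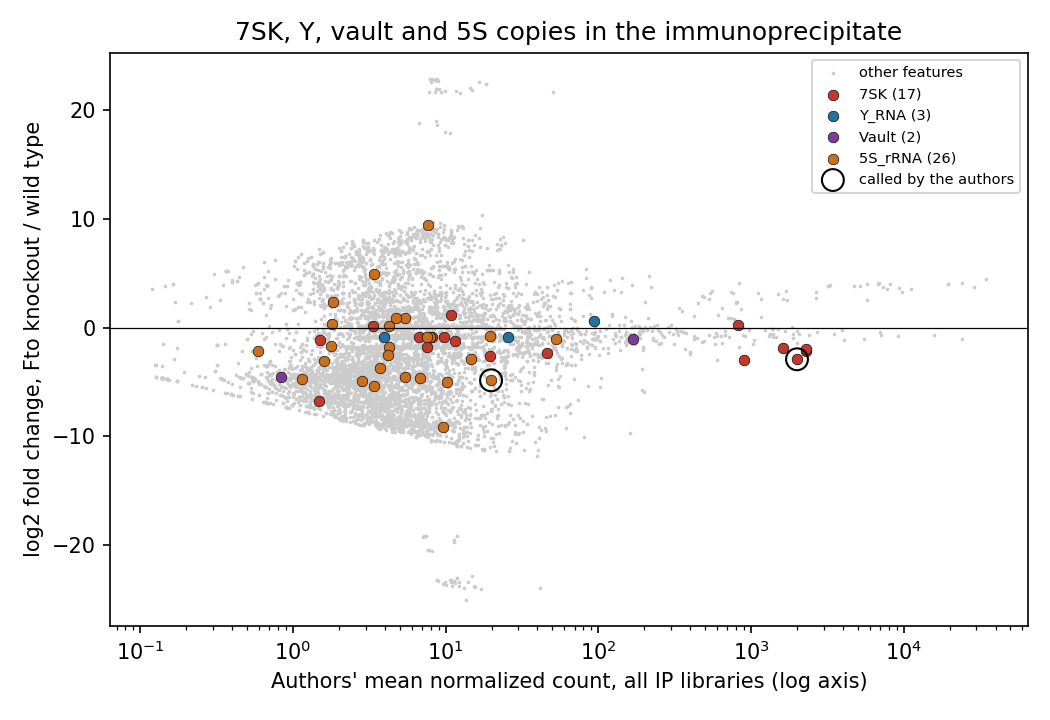
Log2 fold change (knockout over wild type) against the authors' mean (log axis) for all 7569 immunoprecipitate features in grey and the 48 members in colour, with rings on the 2 called members. Among the members, 6 7SK copies have means above 500, as do 93 features of other names, while 30 of the 48 members lie under a mean of 10, where fold changes of all features fan out.

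Over the 4 families together, 24 of the 48 immunoprecipitate members had an adjusted p, and 2 of these were called lower (8.33%, against 3.79% of all features). By fold over SE with Benjamini-Hochberg adjustment over the whole table, 5 of 48 members were lower (10.4%, against 8.01% of all features): the called 7SK copy and 4 5S copies. Intervals wholly below 0 were found for 11 of 48 members (22.9%) and for 18.6% of all features. Counted over all depths, the families' share of lower features was thus near the background. Of the 6 abundant 7SK copies, 5 were among the lowest of the 99 features with a mean of at least 500. That minimum was chosen after the values were seen, and these copies may share reads. After centring, 1 of the 6 kept an interval wholly below 0.

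The families also took different shares of the signal in the 2 tables. Of the summed means, 7SK took 2.03% in the immunoprecipitate and 0.224% in the input, and with the most abundant copy alone 0.464% and 0.184%. Vault RNA made up 0.0343% in the immunoprecipitate and 0.0600% in the input. Y RNA made up 0.0248% and 0.0126%, and 5S rRNA 0.0419% and 8.45e-05%. The tables sum over transcripts in one case and genes in the other, and a read that fits several copies may be counted repeatedly in the first, so these shares describe the tables and do not measure methylation.

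Genes of the proteins that bind or make these RNAs were examined in the input. Of 64 genes in 5 lists, 61 were measured, and 0 were called, with 0 under an unadjusted p of 0.05. Their median was 0.01, with 31 above and 30 below 0, and the largest size was 0.43, from the authors' deposited table. All genes had a median of 0.02, and 1.23% were higher and 0.979% lower by an unadjusted p under 0.05.

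For 7SK and P-TEFb, 12 of 12 genes were measured, 5 above and 7 below 0. The cyclin T genes of P-TEFb, Ccnt2 and Ccnt1, stood at 0.43 (SE 0.25, p = 0.0785) and 0.19 (SE 0.25) per the authors' deposited table. Ell, an elongation factor gene, stood at −0.36 (SE 0.29) per the authors' deposited table. The core genes of the 7SK particle stayed closer to 0, with Larp7 at 0.09 (SE 0.29), Mepce at −0.03 (SE 0.30) and Hexim1 at −0.06 (SE 0.27) per the authors' deposited table.

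Among proteins that bind Y RNA, 8 of 9 genes were measured and 7 lay above 0. Ro60 stood at 0.17 (SE 0.30) and Ssb, which encodes the La protein, at 0.27 (SE 0.26) per the authors' deposited table. Ybx3 stood at 0.32 (SE 0.29) and Hnrnpk at 0.26 (SE 0.24) per the authors' deposited table; both encode RNA-binding proteins. For the vault, Mvp, the major vault protein gene, stood at −0.19 (SE 0.25), Tep1 at −0.41 (SE 0.27) and Parp4 at −0.06 (SE 0.28) per the authors' deposited table. Nsun2, a cytosine methyltransferase that modifies vault RNA, stood at 0.13 (SE 0.23) per the authors' deposited table.

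The 7 genes of the 5S ribonucleoprotein and its assembly ranged from −0.10 to 0.21 per the authors' deposited table. Rpl5, whose protein binds 5S rRNA, was the highest (SE 0.29), Sdad1 the lowest (SE 0.28), and Gtf3a, which encodes the transcription factor of 5S genes TFIIIA, stood at −0.07 (SE 0.30) per the authors' deposited table. RNA polymerase III and its factors had 30 of 32 genes measured, 14 above and 16 below 0, with a range from −0.40 to 0.38 per the authors' deposited table. The ends of that range were the polymerase subunit gene Polr3e (−0.40, SE 0.29) and Gtf3c6 of the TFIIIC complex (0.38, SE 0.28), per the authors' deposited table. Another TFIIIC gene, Gtf3c1, lay the other way from Gtf3c6, at −0.32 (SE 0.23) per the authors' deposited table.

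**Figure D5:**
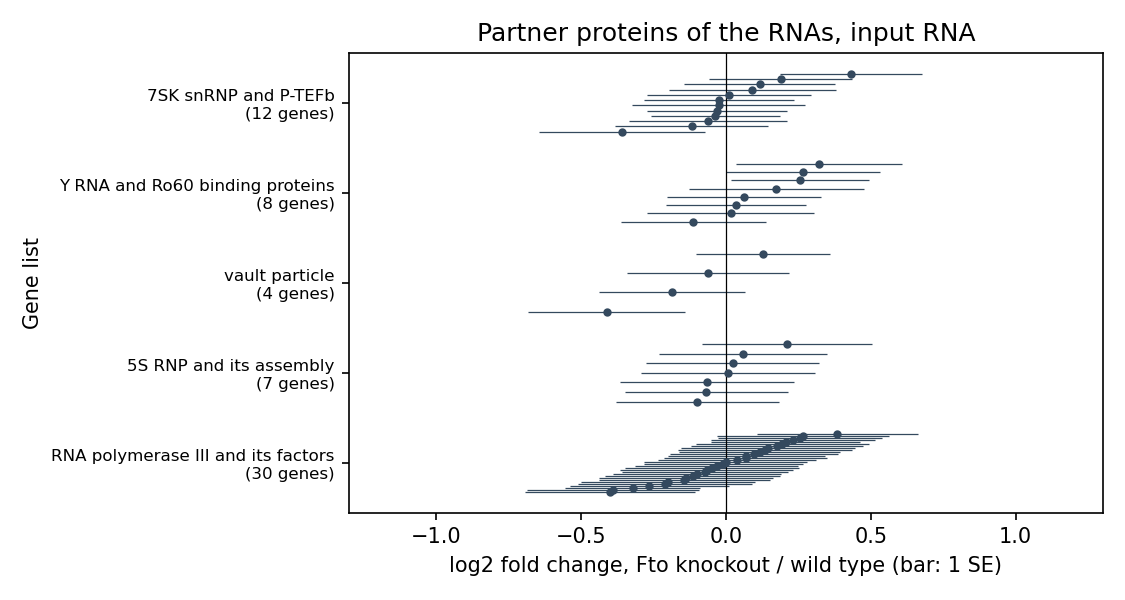
Log2 fold change (knockout over wild type) in the input for 61 genes of 5 lists of proteins that bind or make these RNAs, with 1 SE as bars. All points lie between −0.41 and 0.43, and none was called.

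In the immunoprecipitate 20 of these genes had features, 24 in all, at means from 1.16 to 31.6. The authors called 0 of the 8 with an adjusted p. An unadjusted p under 0.05 was held by 4 of the 24, not all of which had a p. Of all features with a p, 10.4% were under 0.05, and 4 is too small a count to set against that share. Of these 4, 3 were 7SK and P-TEFb features, at means from 4.16 to 12.3. Of the 24, 18 lay below 0, where 70.5% of all features did. Cdk9, the kinase of P-TEFb, had 1 transcript with an adjusted p of 0.141 at a mean of 12.3. Its fold change of −23.44 per the authors' deposited table is not a measurable size at that depth. Mepce stood at −9.34 (SE 2.08, authors' unadjusted p = 0.0235) with a mean of 5.92 and no adjusted p per the authors' deposited table. That size is not measurable at such a depth either. The 13 features of RNA polymerase III and its factors stood for 11 genes, most at means under 10. Transcripts of Snapc3 shared identical values, as did those of Polr3e, and Zfp143 carried the repeated value of −0.82. The 13 had a median of −5.14 against −1.59 for all features, from the authors' deposited table, mostly at depths where a size is not measurable. Of the 13, 12 lay below 0, where 70.5% of all features did, and transcripts with identical values count separately. The exception was Polr3c, a polymerase subunit gene, at 2.81 (SE 1.27, adjusted p = 0.181) per the authors' deposited table, and Tep1 stood at 2.63 (SE 1.69, adjusted p = 0.299).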

How the data were processed

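RNA came from a TRIzol extraction with a DNase step, and libraries were made by the iCLIP cloning procedure, per the labels' protocols. The submitters' processing notes list DESeq2, STAR, bedtools 2.25.0 and mm10 (mouse) without roles. Per the file headers, the authors deposited for each feature a mean normalized signal over all libraries (an average of scaled counts), a log2 fold change with its SE, a test statistic (unit score), and a p-value with an adjusted p-value. The sources used here give no counting rules, model, filters or library totals, so the depth per library is unknown, and p-values measure the spread between replicates that may be technical. In the immunoprecipitate the authors' p does not follow from the printed fold change and SE by a Wald test, so a fold and its adjusted p may not test the same term.

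Members and partner lists were chosen with earlier results of these data known. Named features were the called members, the most abundant, highest and lowest copy of each family at a mean of at least 10, genes with a symbol of their own, and up to 4 (input) or 2 (immunoprecipitate) genes per partner list with the lowest p; Larp7, Mepce and Hexim1 were named for their roles, and further copies and Saa2 after their values were seen. Of the genes the rule named, some are not reported here. All 45 input members matched a current symbol, and positions are those of RefSeq on GRCm38. Alternative calls used fold over SE with Benjamini-Hochberg adjustment over each whole table, tested on simulated data (Python 3.11.15, pandas 2.3.3, scipy 1.17.1). No sequence of these RNAs is printed.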

Additional observations from a re-analysis of the deposited data

How the results depend on the processing

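Of 134 alternative values for 42 results, 116 were counted as unchanged. Medians had to keep their direction and move by less than the median SE. Counts and shares had to stay within 1.5 times, and single copies to keep their direction and side of the threshold. Many alternatives could not change, so 116 does not measure robustness. A count of 0 calls stays 0 at any minimum mean, and several vault alternatives in the immunoprecipitate rest on the same copy. Among the 116, centring brought the median of 7SK from −2.09 to −1.27 and that of vault RNA from −1.04 to −0.22. It brought the 5S median from −2.87 to −2.05, and the most abundant 5S copy from −1.03 to −0.21. Adjusting the authors' p over every feature of the immunoprecipitate gave 0 called copies for both 7SK and 5S rRNA in place of 1 each; these copies then had adjusted p of 0.0803 and 0.0645. Calls of lower 5S copies numbered 4 by fold over SE, 2 by centred fold over SE and 0 at a mean of at least 50. Abundant 7SK copies with an interval below 0 numbered 1 in place of 5 after centring. The Y RNA median in the immunoprecipitate, −0.12, became 0.70 after centring and 0.58 with the most abundant copy, at a mean of at least 50 or without repeated fold changes; in the input, 0.15 became −0.084 with the most abundant copy. The vault median moved from −1.04 to −2.78 with no minimum mean, and the 5S median from −2.87 to −1.03 at a mean of at least 50 or with the most abundant copy. The summed-mean share of 7SK in the immunoprecipitate moved from 2.03% to 0.464% with the most abundant copy, that of 5S rRNA from 0.0419% to 0.0107% with that copy and to 0.0250% at a mean of at least 10, and that of 5S rRNA in the input to 0%. Fewer features or copies enter most of these alternatives by construction. No paired analysis was possible because the deposited tables hold comparisons with no value per replicate; for the same reason no replicate could be left out.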
